A study of Mus musculus with 17 samples.

Results

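Sox9, Sox5, Sox6 and Sox8 are the Sox genes best known from cartilage formation, and they were followed here by name through RNA sequencing of E12.5 mouse limb buds. The deposited tables list 34682 genes, and all 4 of these genes passed the filter on low counts that left 17655 genes for testing. The animals carried duplications of the Dup-C type, of the Dup-L type, of the Dup-L type together with deletion of a domain boundary (Dup-LΔBor), the boundary deletion alone on 1 chromosome (ΔBor het) or on both (ΔBor hom), or were wild type (WT), and all alleles lie at the Sox9-Kcnj locus. The Dup-C, Dup-L and ΔBor het groups had 2 libraries each, Dup-LΔBor and WT 4 each, and ΔBor hom had 1. The labels give neither the zygosity of the duplications, nor the strain, nor which limb was taken, nor whether replicates came from separate embryos. Each p-value of a fold change below is thus set against the scatter of libraries within a group, and that scatter may be technical only. The permutation p-values come from shuffling libraries across genotypes. Libraries of the same genotype count there as independent, which the labels do not show.

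SOX9 is the transcription factor that commits limb mesenchyme to cartilage, and loss of it leaves no limb skeleton in the mouse. SOX5 and SOX6 form a pair of related proteins without an activation domain of their own that bind beside SOX9 on cartilage matrix genes, and SOX8 belongs to the same subgroup as SOX9 (SoxE) and overlaps with it in several tissues. Sox9 itself is controlled by a very long regulatory region that a domain boundary separates from Kcnj2, an inward-rectifier potassium channel gene. As these alleles were published, the duplicated segments hold regulatory DNA, in Dup-C also Kcnj2, and not the Sox9 gene. The question asked here was whether the level of Sox9 nevertheless followed the additional copy of the locus, and whether the other 3 genes, which lie on other chromosomes, moved with it.

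The 4 genes are paralogs, so the part that they share is shown first, because it is where their reads could be confused. In the mouse GENCODE M21 transcripts (GRCm38), the stretch of 237 coding bases that is best conserved among the longest open reading frames of the 4 genes encodes 79 residues of the DNA-binding HMG box. Capitals mark the 114 bases that are identical in all 4 genes (48.1%).
Sox9: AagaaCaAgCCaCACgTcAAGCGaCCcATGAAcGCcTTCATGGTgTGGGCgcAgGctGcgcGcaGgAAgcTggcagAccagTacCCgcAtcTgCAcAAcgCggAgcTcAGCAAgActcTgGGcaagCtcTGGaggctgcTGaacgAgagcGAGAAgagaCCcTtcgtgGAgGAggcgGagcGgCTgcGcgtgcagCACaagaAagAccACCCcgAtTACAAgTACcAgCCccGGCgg
Sox8: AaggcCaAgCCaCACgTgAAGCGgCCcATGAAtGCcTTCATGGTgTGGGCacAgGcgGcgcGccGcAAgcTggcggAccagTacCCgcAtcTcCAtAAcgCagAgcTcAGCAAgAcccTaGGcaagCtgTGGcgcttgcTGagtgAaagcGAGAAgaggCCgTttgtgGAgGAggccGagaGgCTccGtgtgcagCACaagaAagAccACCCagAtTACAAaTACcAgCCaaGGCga
Sox5: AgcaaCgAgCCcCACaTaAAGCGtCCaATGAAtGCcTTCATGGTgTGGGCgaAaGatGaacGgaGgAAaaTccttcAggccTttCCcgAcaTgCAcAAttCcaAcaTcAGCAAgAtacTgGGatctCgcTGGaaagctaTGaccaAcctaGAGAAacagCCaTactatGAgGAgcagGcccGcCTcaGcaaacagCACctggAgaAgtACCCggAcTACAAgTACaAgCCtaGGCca
Sox6: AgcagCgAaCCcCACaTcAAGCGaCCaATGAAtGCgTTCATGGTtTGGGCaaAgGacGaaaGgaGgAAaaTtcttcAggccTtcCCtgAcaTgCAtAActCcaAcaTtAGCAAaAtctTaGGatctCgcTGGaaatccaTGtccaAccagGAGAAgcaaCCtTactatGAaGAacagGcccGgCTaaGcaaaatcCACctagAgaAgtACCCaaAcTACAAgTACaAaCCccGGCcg
Sox9 and Sox8 shared 85.7% of the bases and 97.5% of the encoded residues of this stretch, and Sox5 and Sox6 shared 82.3% and 92.4%. Between these subgroups, base identity ran from 53.2% for Sox6 and Sox8 to 62.0% for Sox9 and Sox5. The longest run of identical bases between any pair was 23, in Sox9 and Sox8 and again in Sox5 and Sox8. No pair shared a run of 50 bases anywhere in its coding sequence. Sox9 lies on chromosome 11, Sox5 on chromosome 6, Sox6 on chromosome 7 and Sox8 on chromosome 17, per the RefSeq gene table.

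The libraries had total counts of 34486256 to 53711742. Prrx1, a gene of limb mesenchyme, was at 54.9 to 106.7 FPKM (fragment counts scaled by transcript length and library size, as the authors made them), Hoxd13, a gene of the distal limb, at 173 to 287 FPKM, and Col2a1, the main cartilage collagen gene, at 59.7 to 163 FPKM, so markers of the labelled tissue were present in all 15. Library numbers in the column headers fall into a first range (9 libraries: all Dup-C, Dup-L and ΔBor libraries with WT 1 and 2) and a second range (6 libraries: Dup-LΔBor with WT 3 and 4), called the first and second batch here. Against WT, fold changes followed the GC content of genes above all in Dup-L and least in Dup-LΔBor. Among 5 bins of rising GC content, genes of the first had a median log2 fold change of 0.45 in Dup-L against WT and genes of the last one of -0.53. In Dup-LΔBor against WT these medians were -0.09 and 0.02. In whole limb buds, fewer cells of a type and less RNA per cell cannot be told apart.

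Sox9 was the most abundant of the 4 genes per unit of transcript length, at 26.6 to 39.9 FPKM over the 15 libraries with a median of 33.5 FPKM. Sox6 followed at 4.74 to 9.5 FPKM (median 7.29 FPKM), Sox5 at 2.62 to 4.48 FPKM (median 3.27 FPKM) and Sox8 at 1.32 to 2.72 FPKM (median 1.81 FPKM). Sox9, Sox6 and Sox5 held this order in every library with no overlap of their ranges, while the highest Sox8 level lay just above the lowest Sox5 level. The ratio of Sox9 to Sox6 in FPKM ran from 3.22 in Dup-LΔBor R5 to 6.24 in Dup-C 2, and that of Sox6 to Sox5 from 1.81 in Dup-C 2 to 2.81 in ΔBor het 1. Sox9 made up between 66.6% and 77.3% of the summed FPKM of the 4 genes. Its highest level was 1.5 times its lowest, against 1.71 times for Sox5, 2.0 times for Sox6 and 2.06 times for Sox8. Among 12186 genes with a mean of at least 1 FPKM, 40.3% had a lower coefficient of variation than Sox9 (14.5%), and 59.8% had a lower one than Sox8 (18.7%).

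**Figure D1:**
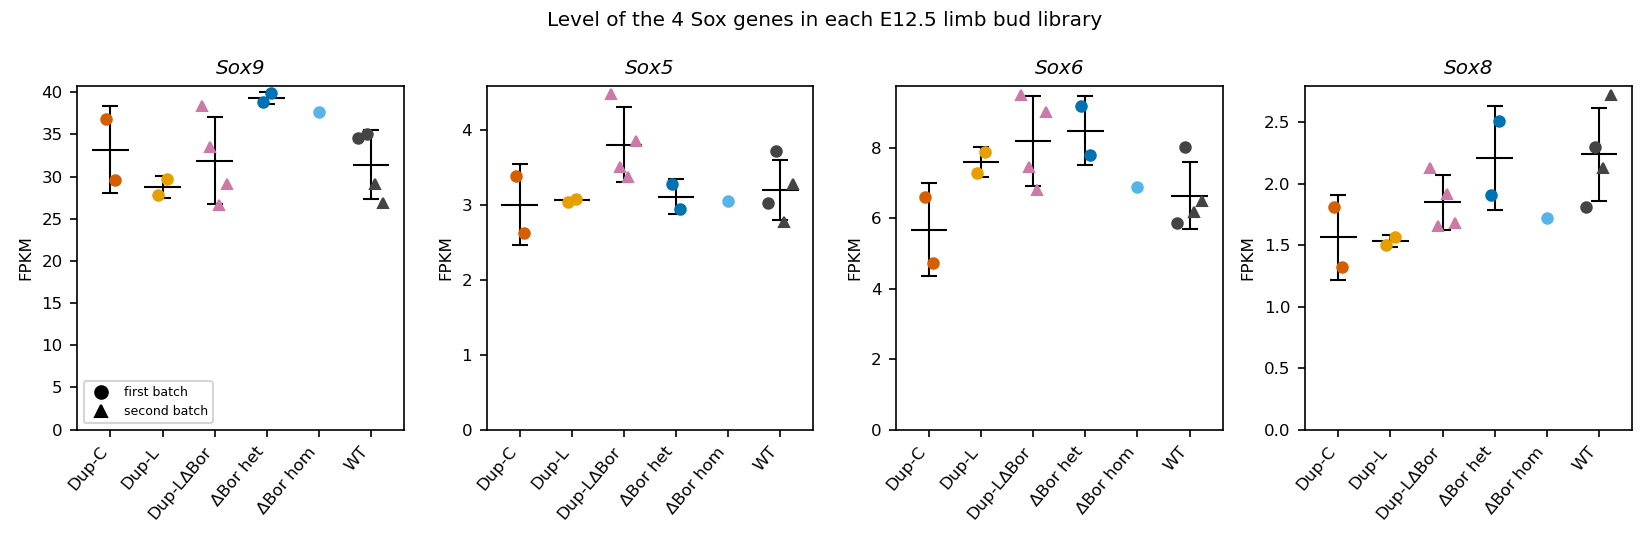
FPKM of Sox9, Sox5, Sox6 and Sox8 on the y axes for each library, by genotype, with circles for the first batch and triangles for the second; horizontal bars give group means and error bars the SD where a group has more than 1 library. The 3 ΔBor libraries lie between 37.7 and 39.9 FPKM for Sox9, above all 4 WT libraries, while libraries with a duplication overlap with WT.

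For Sox9, Dup-C libraries stood at 174 and 141 CPM (counts scaled by normalized library size, not by transcript length). WT 1 to 4 stood at 162, 161, 136 and 124 CPM. These ranges overlap, and the group means, 158 CPM in Dup-C and 146 CPM in WT, lay closer together than the SD within either group (22.7 and 18.9 CPM). The log2 fold change was 0.11 (SE 0.14, adjusted p = 0.695 over all genes in edgeR's quasi-likelihood test), a 1.08-fold level with a 95% interval of 0.876 to 1.33. Sox5 was at 47.3 and 37.2 CPM in Dup-C and 42.0, 50.5, 38.4 and 44.7 CPM in WT (log2 fold change -0.05, SE 0.14). Sox6 was at 90.9 and 66.2 CPM in Dup-C and 80.4, 107, 84.6 and 87.3 CPM in WT (log2 fold change -0.19, SE 0.16). For both, Dup-C 2 was below every WT library and Dup-C 1 lay inside the WT range. Sox8 was at 8.60 and 6.37 CPM in Dup-C, against 8.55, 10.7, 10.1 and 12.7 CPM in WT. Its fold change on the log2 scale was -0.48 with an SE of 0.18 (adjusted p = 0.251). None of the 4 genes passed the threshold of 0.05 in Dup-C, where 1 gene of all tested did (0.00566%) and 2933 genes had an unadjusted p under 0.05. Without WT 1 the count was 1640, with none of the 4 among them. The gene that passed with all libraries was Kcnj2, at 87.7 and 75.2 CPM in Dup-C and 26.2, 21.7, 22.2 and 17.6 CPM in WT, a 3.71-fold level (95% interval 2.83 to 4.86, adjusted p = 7.2e-04).

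In Dup-L, Sox9 was at 131 and 142 CPM, against 162, 161, 136 and 124 CPM in WT. Both Dup-L values lie inside the WT range. The log2 fold change was -0.09 (SE 0.14, adjusted p = 0.657), a 0.937-fold level with a 95% interval of 0.757 to 1.16. Sox5, at 42.5 and 43.5 CPM in Dup-L, lay among the WT libraries (log2 fold change -0.03, SE 0.14). Sox6, at 101 and 110 CPM in Dup-L, overlapped with WT only through WT 2 (log2 fold change 0.23, SE 0.16, adjusted p = 0.298). Sox8 alone of the 4 genes passed, in a comparison where 32.4% of all genes did (16.6% lower). Its Dup-L values, 7.14 and 7.56 CPM, lay below all 4 WT libraries at 8.55 to 12.7 CPM. Non-overlapping ranges were found for 51% of genes in this comparison. Sox8 fell to a 0.702-fold level in Dup-L (95% interval 0.537 to 0.917), a log2 change of -0.51 with an SE of 0.18 and an adjusted p of 0.042.

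The call on Sox8 was narrow. Its transcript has 54.2% GC, more than 72.6% of genes, and genes of that bin had a median log2 fold change of -0.25 in Dup-L against WT. Its own value was -0.29 once GC content and transcript length entered as offsets (adjusted p = 0.268) and -0.41 among first-batch libraries alone (adjusted p = 0.180). Sox10, the third SoxE gene and a marker of neural crest and glia, fell in the same comparison (log2 fold change -0.56, SE 0.21, adjusted p = 0.0496). It is 1 of 8 neural crest and glia markers, of which 4 fell and 1 rose in Dup-L, where 16.6% of all genes fell and 15.8% rose. The summed level of these 8 markers was 106 CPM in both Dup-L libraries and 132 to 161 CPM in WT. The part of these markers in the Sox8 level was not tested. Among markers of other cell types, 4 of 8 endothelial genes fell and 1 rose in Dup-L, 4 of 7 ectodermal, 1 of 7 erythroid and 1 of 6 macrophage genes fell, and 0 of 8 muscle genes passed. The erythroid sum was 399 and 317 CPM in Dup-L, below all 4 WT libraries at 431 to 1086 CPM.

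In Dup-LΔBor, Sox9 was at 184, 160, 127 and 140 CPM (R2 to R5), against 162, 161, 136 and 124 CPM in WT. The groups cover nearly the same range apart from R2. The log2 fold change was 0.07 (SE 0.12, adjusted p = 0.765), a 1.05-fold level with a 95% interval of 0.882 to 1.25. Sox5 was at 63.6, 49.6, 47.6 and 54.97 CPM in Dup-LΔBor, against 42.0, 50.5, 38.4 and 44.7 CPM in WT. Sox6 was at 133, 104, 94.6 and 127 CPM in Dup-LΔBor, against 80.4, 107, 84.6 and 87.3 CPM in WT. For both genes R2 and R5 were above all WT libraries, and WT 2 reached into the Dup-LΔBor range. The log2 fold changes were 0.30 for Sox5 (SE 0.11, adjusted p = 0.127) and 0.35 for Sox6 (SE 0.13, adjusted p = 0.126), with unadjusted p-values in edgeR of 0.0179 and 0.0177. Sox8 was at 10.3, 8.0, 9.27 and 8.19 CPM in Dup-LΔBor, against 8.55 to 12.7 CPM in WT (log2 fold change -0.23, SE 0.14). None of the 4 genes passed, where 3.85% of all genes did. Kcnj2 stood at 45.7 to 69.4 CPM in these 4 libraries, against 17.6 to 26.2 CPM in WT, a 2.6-fold level (adjusted p = 5.2e-04).

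**Figure D2:**
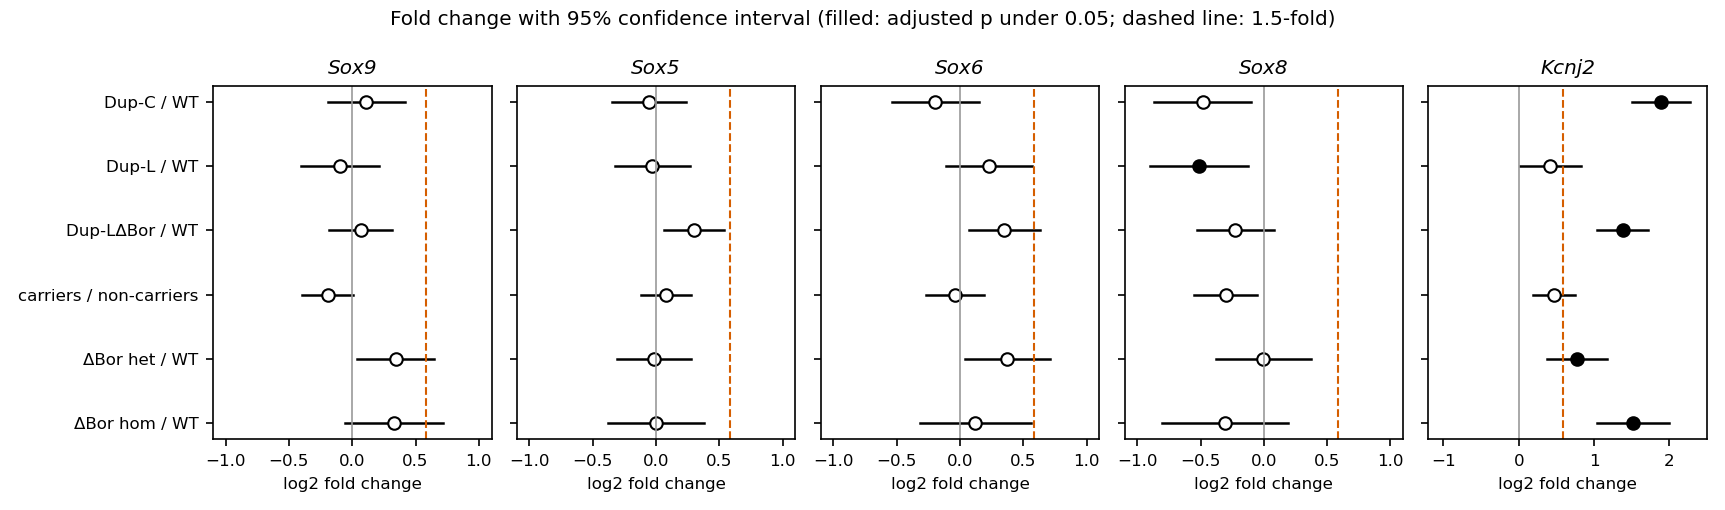
Log2 fold change (x axis) with its 95% confidence interval for each comparison (rows), with 1 panel per gene and Kcnj2 on the right for scale; filled points passed an adjusted p of 0.05, the grey line marks no change and the dashed line a 1.5-fold level. For Sox9, the intervals of the 3 duplication genotypes end at 1.33-fold or lower, left of the dashed line.

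A gene present in 3 copies in place of 2 would stand at a 1.5-fold level if its RNA followed copy number. By the published maps Sox9 lies outside the duplicated segments, and the other 3 genes lie on other chromosomes. None of the 4 is thus known to be in 3 copies, and 1.5-fold serves only as a scale. Since zygosity is unknown, it need not be the ratio even for a duplicated gene. An interval below it therefore cannot show whether RNA followed copy number. The upper ends of the Sox9 intervals, 1.33 in Dup-C, 1.16 in Dup-L and 1.25 in Dup-LΔBor, lay below 1.5-fold. Over the alternative edgeR fits, which give such intervals, the upper end passed 1.5 in 1 of 26 for Dup-C (1.54, without Dup-C 2), in 0 of 26 for Dup-L and in 0 of 24 for Dup-LΔBor. Taking the mean of the 3 duplication genotypes against the mean of the 3 genotypes without a duplication, Sox9 was at -0.20 on the log2 scale (SE 0.10, adjusted p = 0.453), with an upper end of 1.01-fold. The upper ends for the other genes in this contrast were 1.21 for Sox5, 1.14 for Sox6 and 0.965 for Sox8. None of the 4 passed, where 0.3% of genes did. The genotypes without a duplication include ΔBor het and ΔBor hom, whose Sox9 log2 fold changes against WT were 0.34 and 0.33. Against WT itself, those of Dup-C, Dup-L and Dup-LΔBor were 0.11, -0.09 and 0.07. Dup-LΔBor also carries the deletion, so this contrast does not isolate the duplications.

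Library by library, Sox9 ranged from 26.6 to 38.4 FPKM (median 29.6 FPKM) in the 8 libraries with a duplication and from 26.8 to 39.9 FPKM (median 35.1 FPKM) in the 7 without. The mean log2 CPM was 7.22 with a duplication and 7.33 without, a difference of -0.11 (exact permutation test, two-sided, p = 0.321). The difference was 0.13 for Sox5 (exact permutation p = 0.223) and 0.05 for Sox6 (exact permutation p = 0.714). For Sox8 the mean log2 CPM was 3.03 with a duplication and 3.34 without, a difference of -0.31 (exact permutation p = 0.0162). The 4 genes were tested here without adjustment, and over all genes edgeR gave this Sox8 contrast an adjusted p of 0.348. The sign of the difference was not the same in both batches for Sox9, Sox5 and Sox6, and was for Sox8. For Sox9 it was -0.26 in the first batch (4 libraries with and 5 without a duplication, exact permutation p = 0.0397) and 0.22 in the second (4 with, 2 without, exact permutation p = 0.267, where the smallest p possible is 0.0667). For Sox5 it was -0.07 in the first batch (exact permutation p = 0.516) and 0.37 in the second (exact permutation p = 0.133). For Sox6 it was -0.18 in the first batch (exact permutation p = 0.365) and 0.40 in the second (exact permutation p = 0.133). For Sox8 it was -0.38 in the first batch (exact permutation p = 0.0476) and -0.34 in the second (exact permutation p = 0.2). The batches also differ in genotypes. Without a duplication, the first holds WT 1 and 2 (Sox9 at 162 and 161 CPM) and the ΔBor libraries (187, 183 and 183 CPM). The second holds only WT 3 and 4, so batch and genotype cannot be told apart in these differences.

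The genotypes with the boundary deletion alone had the highest mean Sox9 levels. ΔBor het libraries were at 187 and 183 CPM and the ΔBor hom library at 183 CPM, against 162, 161, 136 and 124 CPM in WT. All 3 lie above all 4 WT libraries. Ranges of ΔBor het and WT did not overlap for 26.8% of genes, and those of ΔBor hom, with its single library, and WT for 59.3%. The log2 fold change was 0.34 in ΔBor het (SE 0.14, adjusted p = 0.143) and 0.33 in ΔBor hom (SE 0.18, adjusted p = 0.254). The 95% intervals run from 1.03 to 1.56-fold in ΔBor het and from 0.963 to 1.64-fold in ΔBor hom. Within the first batch, where WT 1 and 2 are the controls, the value was 0.18 in ΔBor het (adjusted p = 0.486) and 0.14 in ΔBor hom (adjusted p = 0.609).

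Sox6 was at 129 and 104 CPM in ΔBor het, and at 97.7 CPM in ΔBor hom, against 80.4 to 107 CPM in WT. The higher ΔBor het library was above the WT range and the other 2 libraries inside it. The log2 fold changes were 0.38 in ΔBor het (SE 0.16, adjusted p = 0.151) and 0.12 in ΔBor hom (SE 0.21). Sox5 lay inside the WT range in all 3 ΔBor libraries, at 46.7, 39.9 and 44.0 CPM. Sox8 was at 9.28 and 11.6 CPM in ΔBor het, inside the WT range, and at 8.45 CPM in ΔBor hom, just below the lowest WT value of 8.55 CPM. None of the 4 genes passed in ΔBor het (4.03% of genes did) or in ΔBor hom (1.27%). Without WT 1, these counts of 712 and 225 genes were 2490 and 2750, and again none of the 4 was among them. Kcnj2 rose in both, to a 1.71-fold level in ΔBor het (adjusted p = 0.043) and a 2.87-fold level in ΔBor hom (adjusted p = 0.0100).

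The boundary deletion was also compared on the Dup-L background. Sox5 was at 63.6, 49.6, 47.6 and 54.97 CPM in Dup-LΔBor, against 42.5 and 43.5 CPM in Dup-L. The ranges do not overlap, as for 64.7% of genes here. The log2 fold change was 0.33 (SE 0.14, adjusted p = 0.070), in a comparison where 43.6% of genes passed. Sox8 was also higher in all 4 Dup-LΔBor libraries (log2 fold change 0.29, SE 0.18, adjusted p = 0.215), while Sox9 (0.16, SE 0.14) and Sox6 (0.12, SE 0.16) overlapped. Fold changes followed GC content here too, and the median was 0.29 in the GC bin of Sox8 and -0.20 in that of Sox5. With GC and length offsets and batch as a term, Sox8 was at -0.17. Dup-L libraries belong to the first batch and Dup-LΔBor libraries to the second, so genotype and batch can be told apart here only through WT. The Dup-LΔBor libraries were also high in Pitx1 and the Dup-L libraries low. Dup-C against Dup-L, both of the first batch, gave a Sox6 level of 90.9 and 66.2 CPM against 101 and 110 CPM, without overlap (68.4% of genes). Its log2 fold change was -0.42 (SE 0.19, adjusted p = 0.131). It was -0.67 without Dup-C 1, -0.21 without Dup-C 2 and -0.06 with Pitx1 as a covariate. None of the 4 genes passed in that comparison, where 15.1% of genes did. Sox9 was at 0.21 (SE 0.17), Sox5 at -0.02 (SE 0.16) and Sox8 at 0.03 (SE 0.21).

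Covariation of the 4 genes was measured over the 15 libraries on log2 CPM, as 6 pairs. Sox5 and Sox6 moved together. Their Pearson r was 0.75 (permutation p = 0.0015, adjusted over the 6 pairs p = 0.0093) and their Spearman rho 0.64 (permutation p = 0.013, adjusted p = 0.078). Dup-LΔBor R2 was highest in both genes and Dup-C 2 lowest in both. Within the second batch r was 0.95 over 6 libraries (exact permutation p = 0.0014, adjusted p = 0.0083) and the ranks were the same in both genes. That batch holds only Dup-LΔBor with WT 3 and WT 4, so its r takes in the difference between these genotypes. Within the first batch r was 0.63 over 9 libraries (exact permutation p = 0.070). Without the 2 libraries farthest from the Sox5 median, Dup-LΔBor R2 and R5, r was 0.59 (permutation p = 0.031, adjusted p = 0.145), so the adjusted call rests on those libraries. Both transcripts are on the low side in GC content, at 44.8% and 46.1%, and with GC and length offsets r was 0.63 (adjusted p = 0.070). As a description, deviations from the genotype means had an r of 0.93 over 14 libraries.

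Sox9 did not pass with any of the other 3. Its r was 0.39 with Sox6 (permutation p = 0.149, Spearman rho 0.44), 0.26 with Sox5 (permutation p = 0.352, rho 0.16) and 0.14 with Sox8 (permutation p = 0.615, rho 0.16). Deviations from the genotype means, again as a description over 14 libraries, had an r of 0.63 for Sox9 with Sox5, 0.58 with Sox6 and 0.03 with Sox8. The low r of Sox9 and Sox8 depended on single libraries. It was 0.46 without WT 4, 0.02 without ΔBor het 2 and 0.56 without Dup-LΔBor R4 and WT 4, the libraries farthest from the Sox9 median (permutation p = 0.048, adjusted p = 0.145). With Sox8, r was 0.72 in the first batch (exact permutation p = 0.031, adjusted p = 0.186) and -0.29 in the second (exact permutation p = 0.578). With Sox5 and Sox6, r in the first batch was 0.34 and 0.36, and in the second 0.71 and 0.73 (exact permutation p = 0.117 and 0.103). Sox8 had an r of 0.22 with Sox5 (permutation p = 0.439) and 0.24 with Sox6 (permutation p = 0.386), with a positive sign in the first batch and a negative one in the second. WT 4 shows how far the pair Sox9 and Sox8 can part, being lowest of all 15 libraries in Sox9 and highest in Sox8.

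**Figure D3:**
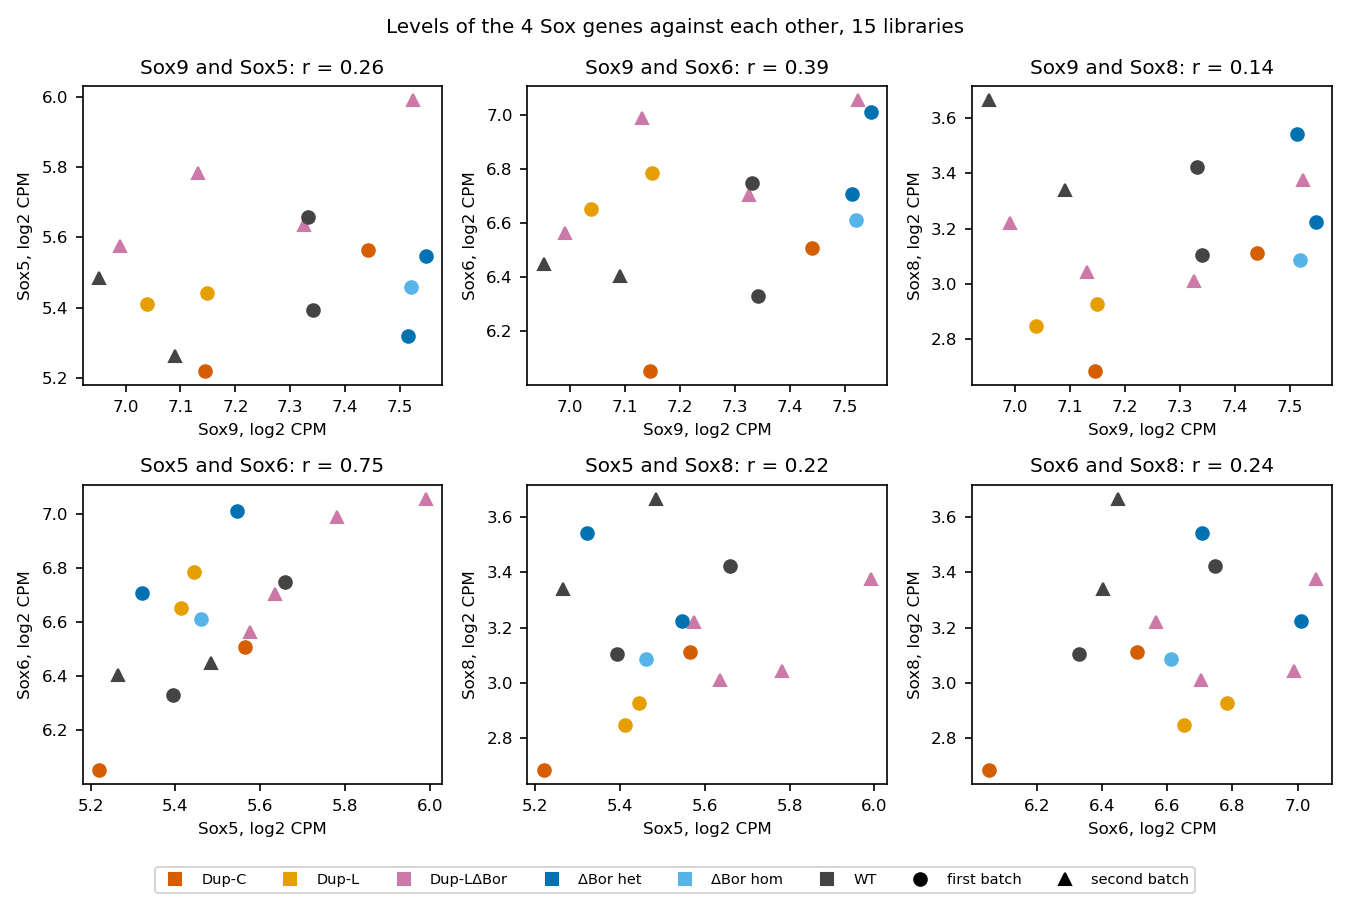
Log2 CPM of each pair of the 4 genes, 1 point per library, coloured by genotype, with circles for the first batch and triangles for the second. Sox5 and Sox6 lie along a line (r = 0.75), and the other 5 panels, with r from 0.14 to 0.39, show no such line.

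Pitx1, which specifies hindlimb, was used as a measure of limb type. A high level does not show whether a library holds hindlimb alone or both limb types. Its CPM values were 88.1 and 69.2 in Dup-C, against 59.8, 1.83, 70.1 and 1.83 in WT 1 to 4. Dup-L libraries had 0.518 and 0.677 CPM. Among the libraries with a deleted boundary, Pitx1 was at 65.9, 73.9, 59.5 and 40.5 CPM in Dup-LΔBor, 39.9 and 116 CPM in ΔBor het and 80.2 CPM in ΔBor hom. The libraries thus fall into 4 low ones (Dup-L 1 and 2, WT 2, WT 4) and 11 high ones, with a gap of 4.41 on the log2 scale, and no pooled correlation is given. Dup-C and Dup-LΔBor, all high in Pitx1, differ from Dup-L in Pitx1 as well as in genotype, and limb type can be told apart there only through WT. Among the WT libraries, 2 are low like Dup-L. With Pitx1 as a covariate, Sox8 in Dup-L against WT was at -0.69 on the log2 scale (edgeR adjusted p = 0.089), and 0 of all genes passed.

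Among the 11 libraries high in Pitx1, none of the 4 genes passed with it. Pearson r was 0.27 for Sox9 (permutation p = 0.415, Spearman rho 0.14), -0.37 for Sox5 (permutation p = 0.264, rho -0.32), -0.37 for Sox6 (permutation p = 0.263, rho -0.23) and 0.26 for Sox8 (permutation p = 0.434, rho 0.10). Adjusted over the 4 relations each p was 0.434. Without ΔBor het 1 and Dup-LΔBor R5, the libraries farthest from the median of Pitx1, r was 0.57, -0.23, 0.20 and 0.37. In the 6 high libraries of the first batch r was 0.04 for Sox9, -0.31 for Sox5, -0.23 for Sox6 and 0.31 for Sox8, and the second batch had only 5 such libraries. The cluster low in Pitx1, with 4 libraries, was too small for a correlation.

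WT holds a low and a high library in each batch, which sets them side by side within 1 genotype. Sox9 was at 161 CPM in WT 2 and 162 CPM in WT 1 of the first batch, and at 124 CPM in WT 4 and 136 CPM in WT 3 of the second, where WT 2 and WT 4 are the libraries low in Pitx1. Sox5 was higher in the low library of both batches, at 50.5 against 42.0 CPM and at 44.7 against 38.4 CPM. Sox6 was at 107 against 80.4 CPM and at 87.3 against 84.6 CPM. Sox8 was at 10.7 against 8.55 CPM and at 12.7 against 10.1 CPM. Single libraries stand on each side, so these are values without a test. Sox9 differed more between the batches than with Pitx1, and the other 3 genes were higher in the library low in Pitx1 of each batch. The Dup-L libraries, low in Pitx1 too, had 7.14 and 7.56 CPM of Sox8, below WT 2 and WT 4.

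**Figure D4:**
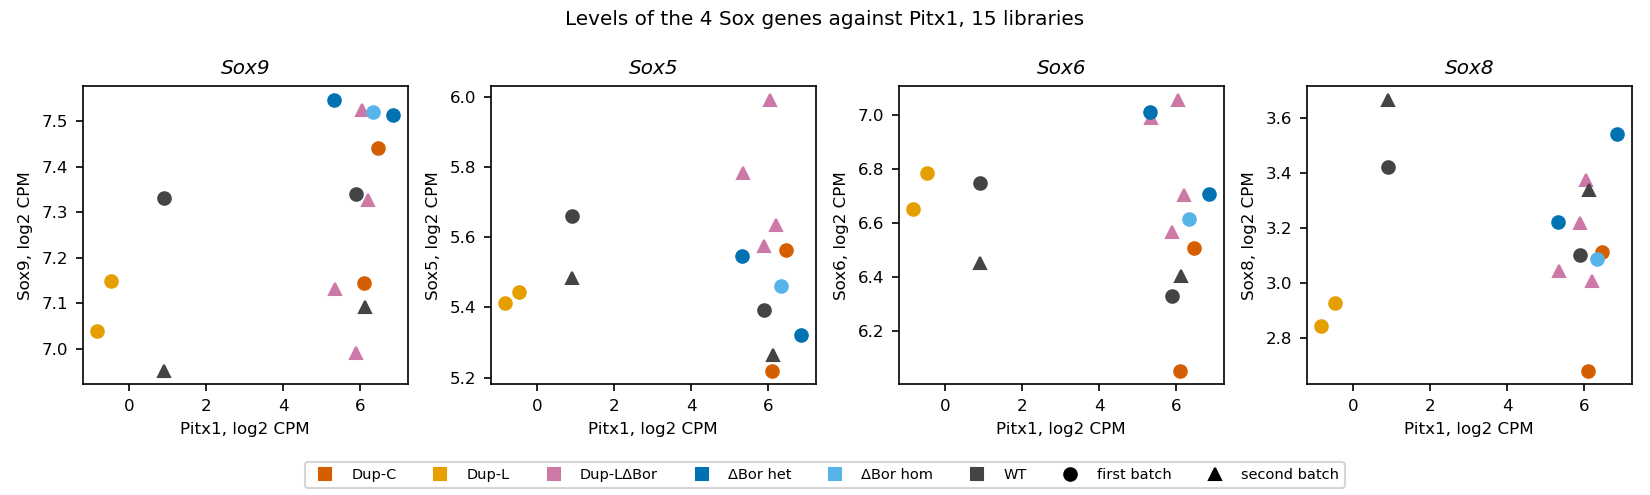
Log2 CPM of Sox9, Sox5, Sox6 and Sox8 (y axes) against log2 CPM of Pitx1 (x axis) in the 15 libraries, coloured by genotype, with circles for the first batch and triangles for the second. The 4 libraries on the left (Dup-L 1 and 2, WT 2 and 4) are separated from the other 11 by a gap of 4.41 in Pitx1, and Sox9 covers nearly its whole range among the 11.

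Genes that SOX9 and its partners are known to act on were counted from fixed lists. Of 23 tested cartilage matrix genes and other SOX9 targets, 0 passed against WT in ΔBor het, ΔBor hom, Dup-C and Dup-LΔBor. Their median log2 fold changes were -0.27, -0.57, -0.67 and 0.01 in these comparisons, against -0.02, -0.03, -0.01 and -0.01 over all genes. The shares of all genes past the threshold were small: 3.85% for Dup-LΔBor, 1.27% for ΔBor hom, 0.00566% for Dup-C and 4.03% for ΔBor het. A count of 0 among 23 therefore does not set this list apart from other genes. In Dup-L, 2 of the 23 fell, Col2a1 (log2 fold change -0.79, SE 0.26, adjusted p = 0.033) and Xylt1, which starts glycosaminoglycan chains (-0.85, SE 0.22, adjusted p = 0.0087), where 16.6% of all genes fell. The list's median there was -0.23, against 0 over all genes. The list summed to 1957 and 2050 CPM in Dup-L, to 1289 and 2180 CPM in Dup-C, 2207 to 3273 CPM in Dup-LΔBor, 1980 and 2326 CPM in ΔBor het, 1835 CPM in ΔBor hom and 1664 to 2933 CPM in WT. Dup-C 2, lowest in Sox5, Sox6 and Sox8, was lowest in this sum as well.

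Acan, which encodes the large cartilage proteoglycan aggrecan, varied 9.15-fold over the libraries, from 0.48 to 4.39 FPKM. In Dup-C it was at -1.34 on the log2 scale against WT (SE 0.55, adjusted p = 0.275). Runx2, the regulator of bone and of maturing cartilage, was at -0.89 in Dup-C (SE 0.32, adjusted p = 0.251) and at -0.85 in Dup-LΔBor (SE 0.25, adjusted p = 0.071). In Dup-LΔBor against Dup-L, Runx2 fell by 1.09 (SE 0.30, adjusted p = 0.0095) and Col2a1 rose by 1.01 (SE 0.26, adjusted p = 0.0074). In that comparison 43.6% of all genes passed, and its groups also differ in batch and in Pitx1.

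Of 27 tested chondrogenic regulators and SOX9 partners, 5 rose and 8 fell in Dup-L against WT, where 15.8% of all genes rose and 16.6% fell. The part of GC content and limb type in these Dup-L counts was not tested. In Dup-LΔBor 1 of the 27 rose (2.25% of all genes did), in ΔBor het 1 rose (2.25%), and 0 passed in Dup-C and ΔBor hom. Of all genes, 1.27% passed for ΔBor hom and 0.00566% for Dup-C. Med12, a Mediator subunit that binds SOX9, was the riser in Dup-LΔBor (log2 fold change 0.40, SE 0.08, adjusted p = 0.018) and fell in Dup-L (-0.53, SE 0.10, adjusted p = 0.0019). Crebbp, a coactivator that binds SOX9, fell in Dup-L by 0.82 (SE 0.15, adjusted p = 0.0019), and Bmp2, a chondrogenic growth factor gene, rose in ΔBor het by 0.47 (SE 0.12, adjusted p = 0.044). Zfp219, which encodes another SOX9 partner, fell in Dup-L by 0.90 (SE 0.20), and the receptor gene Bmpr1a rose there by 0.49 (SE 0.10).

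Among the other 16 Sox genes, 12 were tested. Sox11, Sox4 and Sox12, the SoxC genes of progenitor cells, had medians of 58.1, 46.8 and 33.7 FPKM, and these 3 were the Sox genes with medians above that of Sox9. In Dup-L against WT, 5 of the 12 fell, where 16.6% of all genes did. Sox13, the third member of the subgroup of Sox5 and Sox6 (SoxD), fell by 0.89 (SE 0.14, adjusted p = 0.0014) and Sox18 of endothelium by 1.02 (SE 0.22, adjusted p = 0.0038). Sox12 (-0.52), Sox4 (-0.49) and Sox10 (-0.56) were the other fallers. Fold changes in Dup-L followed GC content, with a median of -0.53 in the highest of the 5 GC bins. Over all genes, 5719 passed in Dup-L in the main fit, 742 with GC and length offsets and 0 with Pitx1 as a covariate. The part of GC content and limb type in these falls was not tested. Sox10 also fell in Dup-LΔBor, by 0.84 (SE 0.17, adjusted p = 0.020), with 4 of the 8 neural crest and glia markers in all, itself included, where 1.6% of all genes fell. Sox11 (0.49, SE 0.12, adjusted p = 0.043) and Sox2 (1.49, SE 0.39, adjusted p = 0.047) rose in ΔBor het, where 2.25% of all genes rose. Sox2 was near the floor, at 0.04 to 0.84 FPKM over all libraries with a median of 0.2 FPKM. In Dup-C and ΔBor hom, 0 of the 12 passed, where 0.00566% and 1.27% of all genes did. The other SoxD genes had log2 fold changes of -0.03 (Sox5) and 0.23 (Sox6) in Dup-L, and a test of the difference between these genes and Sox13 was not made.

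The genes most like each member were taken by Pearson r of log2 CPM over the 15 libraries, among 12185 other genes with a mean of at least 1 FPKM, and are given as a description. The points share library, depth and base composition. For Sox9 they were BC049805_gene (r = 0.84), Lpin3, a lipin of lipid synthesis (0.81), the DNA helicase gene Recql5 (0.81), 5930403L14Rik (0.80) and Heatr6 (0.79). For Sox5 they were the carbonic anhydrase gene Car9 (0.92), Kcnab3 (0.91), Lrch3 (0.90), Atp1b2 (0.89) and Atf7 (0.88). For Sox6 they were 4930402H24Rik (0.94), Zkscan2 (0.91), the netrin receptor gene Unc5c (0.89), the proteoglycan gene Vcan (0.86) and St8sia1 (0.85). For Sox8 they were Chadl, a gene of the chondroadherin family (0.86), Fgd5 (0.85), Kptn (0.83), Extl1 (0.81) and Robo4, a receptor of endothelium (0.81). Sox5 ranked 83 among the genes like Sox6, and Sox6 ranked 238 among those like Sox5. Sox9 ranked 1546 for Sox6, 3641 for Sox5 and 4891 for Sox8. Col2a1 had an r of 0.67 with Sox5, 0.63 with Sox8, 0.46 with Sox9 and 0.37 with Sox6.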

How the data were processed

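PolyA RNA of E12.5 mouse limb buds was sequenced in 15 libraries with a column in the gene tables. The 2 fingertip samples of day 17.5 are not analysed here. The authors deposited raw counts per gene and, for the same genes and libraries, FPKM values, for which no source used here gives the library scale. STAR, DESeq2, bedtools 2.17.0 and the build mm9 are named per the submitters' processing notes; for the counter, the annotation and the strand setting, none of the sources used here has an entry. The members and gene lists were chosen with earlier results of these data known.

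Column names were matched to the labels. Columns R2 to R5 name the genotype of Dup-LΔBor in another way and were assigned to it as a group, not to single samples; for ΔBor hom, the column says R3 and the label replicate 1. R4 and R5 share a library number, but their counts differed by a mean chi-square per gene of 25.5, against 5.93 to 33.1 for the other Dup-LΔBor pairs.

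Counts were fitted with edgeR 4.0.16 in R 4.3.3 (TMM scaling, low genes removed with filterByExpr, two-sided quasi-likelihood F-tests with robust moderation, Benjamini-Hochberg over 17655 genes), with all 15 libraries in 1 fit of 6 groups and no block. For ΔBor hom, which has 1 library, the fit takes its spread from the other groups. Intervals are 95%, with the SE from the F-statistic. CPM uses TMM-scaled library sizes, and log2 CPM a prior count of 2. Genes "rose" or "fell" only past an adjusted p of 0.05. Permutation tests enumerated all arrangements (exact) or drew 100000. Genes were named by rule: the 4 members, Pitx1, Kcnj2, Col2a1, Acan and Runx2, the 5 genes most like each member, all other Sox genes past the threshold, and up to 4 genes per list and comparison. Tbx4 and Tbx5 are not described; Prrx1, Hoxd13, and the chromosomes, GC content and length from GRCm38 annotations, were added for context. GC content and length were available for 86.4% of the tested genes. Coding stretches were aligned with MAFFT 7.526. The scripts were tested on simulated data. Alternatives were DESeq2 1.42.0, limma 3.58.1 on log2(FPKM + 1) and log2(FPKM + 0.1), other scaling and filters, batch, the replicate block, Pitx1 as a covariate, GC and length offsets, and each library left out.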

Additional observations from a re-analysis of the deposited data

How the results depend on the processing

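The 4 genes in 8 comparisons gave 32 fold changes, and 877 values were obtained for them under other settings. Of these, 801 kept both direction and side of the threshold, 55 changed sign, 16 lost and 5 gained a call. None of the changes of sign had an adjusted p under 0.05, and the largest was 0.32 in size. For every change below, the cause was not tested.

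The fall of Sox8 in Dup-L was the only one of these fold changes called in the main test. It was -0.49 with upper quartile scaling (adjusted p = 0.053), -0.52 with only the groups compared (0.054), -0.39 with batch as a term (0.164), -0.41 in the first batch (0.180), -0.69 with Pitx1 as a covariate (0.089), -0.29 with GC and length offsets (0.268) and -0.19 with these and batch (0.566). With 1 library left out it ran from -0.61 to -0.40, and the call was lost without Dup-L 1, Dup-L 2, Dup-LΔBor R3, Dup-LΔBor R4, WT 2, WT 3 or WT 4. Sox5 in Dup-LΔBor against Dup-L passed with no count filter (0.38, adjusted p = 0.036), with DESeq2 (0.33, 0.0496), with only the groups compared (0.32, 0.024) and with GC and length offsets (0.53, 0.011), and without Dup-LΔBor R4 in a range of 0.25 to 0.38.

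Small log2 fold changes took the other sign as follows. Sox5 in ΔBor hom was -0.026 with upper quartile scaling, -0.021 with no count filter, -0.046 and -0.057 in limma with pseudocounts of 1 and 0.1, -0.014 with only the groups compared, -0.072 with batch as a term, -0.12 in the first batch, -0.092 with GC and length offsets and -0.16 with these and batch. Sox8 in ΔBor het was 0.12 with batch, 0.11 in the first batch, 0.12 with Pitx1, 0.17 with the offsets and 0.27 with offsets and batch. Sox9 in Dup-C was -0.035 with batch and -0.040 in the first batch. In Dup-C against Dup-L, Sox5 was 0.036 with no count filter, 0.32 with Pitx1, and 0.17 with the offsets, with or without batch, while Sox8 was -0.017 with upper quartile scaling and -0.087 with the offsets, with or without batch. With Pitx1, Sox5 was 0.092 in Dup-C and 0.11 in ΔBor het. With offsets and batch, Sox8 was 0.048 in ΔBor hom and -0.17 in Dup-LΔBor against Dup-L, and Sox6 was 0.012 in carriers against non-carriers; Sox5 in this contrast was -0.056 in the first batch.

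Replicate numbers were not used to pair the libraries in the main fit. Differences between replicates 1 and 2 correlated between genotypes at -0.18 to 0.10. WT 1 and 2 also differ in Pitx1, so these values cannot exclude a pairing. In replicates 1 and 2 of Dup-C, Dup-L, ΔBor het and WT, the replicate block put Sox9 in Dup-C at -0.050 (-0.047 without the block), Sox8 in Dup-L at -0.43 (adjusted p = 0.218; -0.43 and 0.161 without), Sox8 in ΔBor het at 0.10 (0.10 without) and Sox5 in Dup-C against Dup-L at 0.0047 (0.0087 without). The block gave 0 genes in Dup-C, 1584 in Dup-L and 35 in ΔBor het against WT, and 1621 in Dup-C against Dup-L, against 0, 3190, 52 and 2824 without it.

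With 1 library left out, Sox9 in Dup-C ran from -0.043 to 0.25 and in Dup-LΔBor from -0.036 to 0.15. Sox5 ran from -0.24 to 0.10 in Dup-C, -0.097 to 0.057 in Dup-L, -0.14 to 0.089 in ΔBor het, -0.054 to 0.098 in ΔBor hom and -0.21 to 0.14 in Dup-C against Dup-L. Sox6 ran from -0.44 to 0.0097 in Dup-C and -0.12 to 0.028 in carriers against non-carriers, and Sox8 from -0.17 to 0.14 in ΔBor het and -0.21 to 0.23 in Dup-C against Dup-L.

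The permutation difference with and without a duplication was, in the first batch, -0.26 for Sox9 (exact p = 0.0397), -0.066 for Sox5 and -0.18 for Sox6, and in the second 0.22 for Sox9, 0.37 for Sox5, 0.40 for Sox6 and -0.34 for Sox8 (exact p = 0.2); for Sox6 it ran from -0.0017 to 0.14 with 1 library left out. The r of Sox5 and Sox6 was 0.63 in the first batch, 0.63 with GC and length offsets and 0.59 without the 2 farthest libraries. In the second batch r was -0.29 for Sox9 and Sox8, -0.26 for Sox5 and Sox8 and -0.42 for Sox6 and Sox8. For Sox5 and Sox8 it was -0.062 with the offsets, and for Sox6 and Sox8 -0.22 without the 2 farthest libraries and -0.095 to 0.40 with 1 left out. For Sox8 and Pitx1 it was -0.11 to 0.41 with 1 left out.

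Counts of genes past the threshold depended more on the settings, at 1 in Dup-C (0 to 1640 over the alternatives), 5719 in Dup-L (0 to 6207), 679 in Dup-LΔBor (66 to 1656), 712 in ΔBor het (9 to 2490) 225 in ΔBor hom (3 to 2750) against WT, 7704 in Dup-LΔBor (197 to 9173) and 2674 in Dup-C (0 to 5568) against Dup-L, and 53 in carriers against non-carriers (15 to 228). The highest counts in Dup-C, ΔBor het and ΔBor hom were those without WT 1.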
